A study of Drosophila melanogaster with 23 samples.

Results

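The Bearded family genes followed here are the 6 genes Brd (FBgn0000216), Tom (FBgn0026320), Ocho (FBgn0040296), E(spl)malpha-BFM (FBgn0002732), E(spl)m4-BFM (FBgn0002629) and E(spl)m6-BFM (FBgn0002632), named malpha, m4 and m6 where they recur. They were taken by their gene identifiers out of 10622 genes with a measured promoter. The rule used no values, but it was set with earlier results of these data known. The genes hold 6 of the 24730 transcription start site clusters (TSCs) of the series. RAMPAGE, which sequences the 5′ ends of capped, 5′-complete cDNAs, had been applied to whole *D. melanogaster* embryos of the strain y; cn bw sp, laid in population cages, collected over 1 hour and aged. The 23 windows run from 0-1 h through 22-23 h after egg laying, each window is 1 barcoded sample of pooled embryos, called a library here, and no agent or mutation separates the windows. All 23 were pooled after barcoding and sequenced together. Levels are given in RPM, reads scaled to 1000000 reads counted in TSCs of the library. Each molecule gives a single 5′ end, so that RPM can be compared between genes without scaling for length.

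Bearded family proteins are small proteins that bind Neuralized, the ubiquitin ligase that drives endocytosis of the Notch ligand Delta in the signal-sending cell, and hold back its activity. In the early embryo the genes of the Bearded locus are known to be repressed by Snail in the mesoderm, which frees Neuralized there, and to be active in the neighbouring ectoderm. The E(spl) complex holds further family members between genes for bHLH repressors, and many genes of the complex are direct targets of Notch through the DNA-binding protein Su(H). Brd was named for gain-of-function alleles that give tufts of extra bristles, and Tom takes its name from its likeness to m4.

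The shallowest library, 5-6 h, held 286206 reads, the deepest, 1-2 h, 14705005, and the median was 2664024. Stage markers followed the labels, with the maternal transcripts of bcd, nos and pgc highest in the first 2 windows and the cuticle genes Edg78E and Cpr47Eg highest at 18-19 h and 21-22 h. The whole embryo was the sample, so a lower RPM from fewer expressing cells and one from less RNA per cell cannot be told apart. With 1 library a window, the intervals printed beside single values are exact 95% binomial (Clopper-Pearson) intervals and cover counting error only.

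All 6 genes were most active in a limited stretch of embryogenesis, but not at one time. Brd, Tom, Ocho, malpha and m4 were highest between 5-6 h and 7-8 h, while m6 was highest at 10-11 h. Each of the 6 had a single TSC, so gene and promoter values are the same. In the Bearded locus, on chromosome arm 3L of the release 5 assembly (dm3), all 3 promoters lie on the plus strand. The Tom TSC spans 3L:14962440-14962462, that of Brd 3L:14965677-14965784 and that of Ocho 3L:14968305-14968328. Their starts are 3237 bp and 2628 bp apart. In the E(spl) complex on 3R, malpha starts at 3R:21836597-21836623 on the plus strand, m4 at 3R:21850280-21850311 on the minus strand and m6 at 3R:21858620-21858647 on the plus strand. The Brd TSC was 108 bp wide, against 23 to 32 bp for the other 5 and a median of 41 bp over all TSCs. The 6 genes are annotated as protein-coding with 1 exon in every transcript in the later BDGP6 annotation (lengths only), which holds for 9.72% of the 9944 protein-coding genes measured. They are 532 to 1193 bp long, against a median of 2726.5 bp for those genes.

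Brd is the founder of the family and was its most active promoter. Over the first 9 windows it stood at 41.5, 92.8, 243, 848, 1480.5, 1716, 1553, 2056 and 1023 RPM. From 9-10 h on it stood at 198, 62.1, 26.3, 22.8, 8.02, 10.1, 6.58, 5.42, 5.83, 3.53, 5.13, 2.03, 0 and 7.88 RPM. The promoter thus stayed at or above 848 RPM for 6 consecutive windows, and every window after 13 h was at or below 10.1 RPM. The highest value, at 7-8 h, rested on 2454 reads and had an interval of 1975 to 2139 RPM, above that of each other window. Brd reached 9.14 times its 1-2 h level at 3-4 h (interval 8.49 to 9.84) and 0.127 times its 6-7 h level at 9-10 h (0.118 to 0.137). By 20-21 h it was 1011-fold lower than at 7-8 h, on 14 reads against 2454, a ratio of 0.000989 with an interval of 0.00054 to 0.00166.

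Tom, the neighbour of Brd, had the lowest highest value of the 6 and a flat top. It stood at 2.78, 6.8, 14.9, 86.1, 97.8, 87.3, 109.9, 99.7, 86.7, 75.2, 43.1 and 29.2 RPM over the first 12 windows. All windows from 3-4 h through 9-10 h held at least 50% of the highest value, a plateau of 7 h. The intervals of 4-5 h (77.2 to 122 RPM), 5-6 h (56.5 to 129 RPM) and 7-8 h (82.6 to 119 RPM) overlapped that of the highest window (102 to 118 RPM), so the order of these windows is not resolved. After 12 h no window of Tom exceeded 5.25 RPM, and 3 had no read. At 20-21 h Tom had 0 of 6887499 reads. Set at the 3-read limit, 0.436 RPM, it was 252-fold lower than at 6-7 h. The exact interval of the ratio runs from 0 to 0.00488.

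Ocho lay between these levels. It stood at 16.8, 30.5, 73.7, 372, 406, 660, 665, 781 and 552 RPM over the first 9 windows and at 347, 259, 148, 29.6, 24.4, 15.2, 9.57, 9.14, 2.57, 3.38, 3.85, 1.74, 3.33 and 7.88 RPM after that. Its highest window was that of Brd, 7-8 h, with 932 reads and an interval of 731 to 833 RPM, which overlapped that of the thinly sequenced 5-6 h library (569.6 to 761 RPM). The later decline was slower than in Brd. Ocho held 0.523 times its 6-7 h level at 9-10 h (0.492 to 0.555) and Tom 0.684 times (0.597 to 0.783), against 0.127 times for Brd, and these intervals do not overlap. Ocho was 448-fold lower at 20-21 h than at 7-8 h, on 12 reads against 932.

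**Figure D1:**
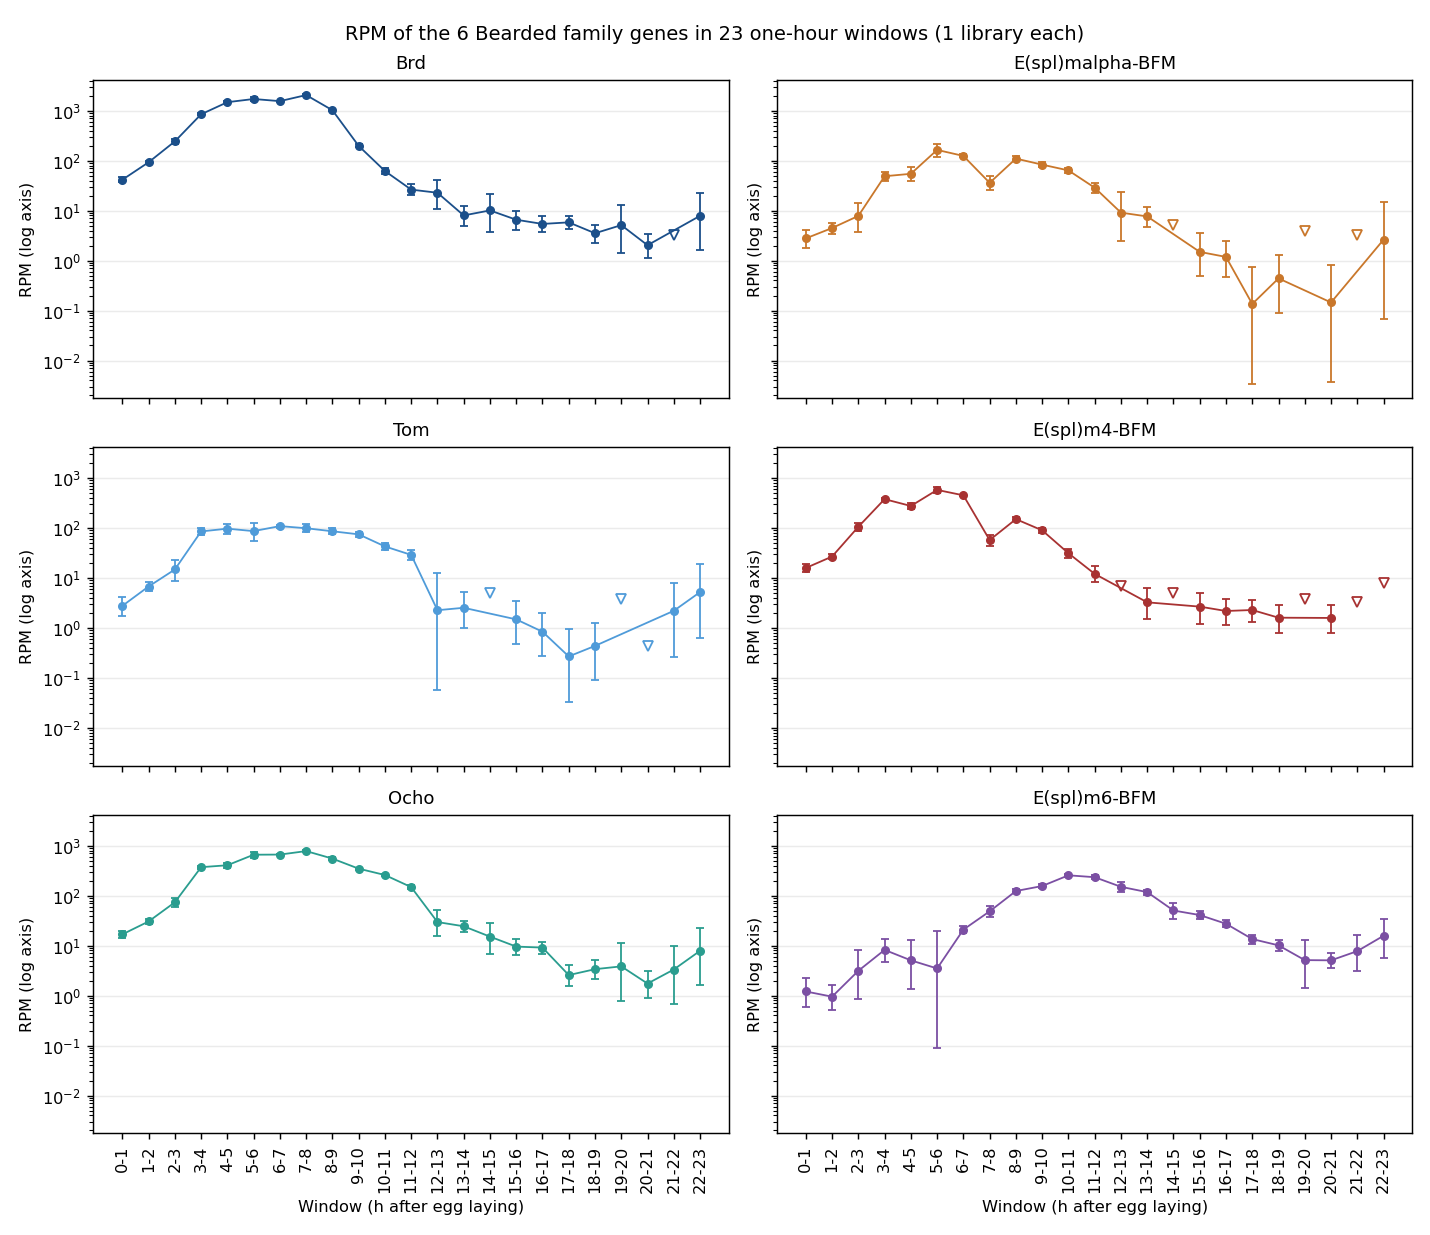
RPM (log axis) of each of the 6 genes in the 23 windows, in hours after egg laying. Points are single libraries, bars are exact 95% counting intervals, and open triangles mark windows with 0 reads at the 3-read limit. Brd reaches 2056 RPM at 7-8 h, and m6 is the only panel whose top lies after 9 h (255.6 RPM at 10-11 h).

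In the E(spl) complex, malpha stood at 2.78, 4.49, 7.84, 48.8, 54.6, 164, 124, 36.0, 109.98, 83.3, 63.8 and 28.8 RPM over the first 12 windows. It was highest at 5-6 h, but only 47 reads of the shallowest library stand behind that value, whose interval of 121 to 218 RPM overlapped that of 6-7 h (116 to 133 RPM, 832 reads). From 14-15 h on malpha never exceeded 2.63 RPM and had no read in 3 windows. At 20-21 h it was seen in 1 read, a ratio to 5-6 h of 0.000884 with an interval of 2.19e-05 to 0.00517.

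The m4 promoter, which lies 13714 bp from that of malpha and points the other way, stood higher than malpha through 8-9 h. At 3-4 h it held 65.3% of its highest value, against 29.7% for malpha. It stood at 16.0, 27.1, 107, 381, 278, 583, 454, 57.8, 152, 90.5, 31.5 and 12.2 RPM over the first 12 windows, and at no more than 3.28 RPM later, with no read in 5 windows. As for malpha, the highest window was 5-6 h (167 reads, interval 498 to 679 RPM), here above the interval of 6-7 h (438 to 471 RPM). Without the shallow libraries of 5-6 h and 22-23 h, malpha and m4 were both highest at 6-7 h. Between 1-2 h and 3-4 h m4 increased 14.1-fold (12.4 to 16.0). The step was 12.7 for Tom (9.79 to 16.4), 12.2 for Ocho (10.8 to 13.8), 10.9 for malpha (7.82 to 15.2) and 8.64 for m6 (3.89 to 19.3), whose intervals all overlap that of m4, and only that of Brd lies below it.

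The m6 gene, 8309 bp beyond m4, had another time course. It stood at 1.21, 0.952, 3.14, 8.23, 5.08, 3.49 and 20.9 RPM over the first 7 windows, when the other members rose to or near their top. It then held 48.6, 124, 156, 255.6, 234, 151 and 118 RPM through 13-14 h, and 50.5, 41.0, 27.4, 13.5, 10.1, 5.13, 5.08, 7.77 and 15.8 RPM to the end. The highest window, 10-11 h, had 877 reads and an interval of 239 to 273 RPM, which overlapped that of 11-12 h (216 to 254 RPM). Between 6-7 h and 9-10 h, m6 increased 7.45-fold (6.20 to 9.01) while each of the other 5 decreased. The m6 level at 20-21 h was 50.3-fold below that at 10-11 h, on 35 reads against 877, a smaller drop than in any other member, each taken from its own highest window.

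By highest level the genes ran Brd, Ocho, m4, m6, malpha and Tom. Only some steps of this order exceeded the spread of single libraries around the fitted time curve. The step of 1.40 on the log2 scale between Brd and Ocho was larger than 1 SD of such a difference (0.82), and that of 1.19 between m4 and m6 was barely so (1.17). The steps between Ocho and m4 (0.42 against 1.12), m6 and malpha (0.64 against 0.98) and malpha and Tom (0.58 against 1.08) were smaller than it. This SD is taken over all windows, late ones with few reads included, and not at the top alone. It also treats the genes of a pair as independent, although they share libraries. The comparison is thus a description and no test of the order. The highest RPM of Brd was above that of 98.1% of all genes, and that of Tom above 67.1%.

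To ask whether the profiles changed over time beyond the scatter of the libraries, log2(RPM + 1) of each gene was fitted with a smooth curve of the window's midpoint and tested with limma over all genes with a mean of at least 1 RPM. All 6 passed the filter, and all 6 were called time-dependent at an adjusted p (Benjamini-Hochberg) below 0.05, but so were 8836 of 9538 genes, or 92.6%. The count is thus near the background. The fitted range, the highest minus the lowest point of the curve, was 9.29 ± 0.43 (SE) on the log2 scale for Brd (adjusted p = 1.42e-14), 9.04 ± 0.85 for m4 (1.17e-10) and 7.74 ± 0.34 for Ocho (2.45e-15). It was 7.03 ± 0.44 for Tom (2.18e-11), 6.63 ± 0.55 for m6 (6.74e-12) and 6.53 ± 0.48 for malpha (1.04e-10). The median of the 6 was 7.39, against 2.98 over all genes tested, and each range was larger than those of at least 92.2% of genes. The fitted curve of m4 runs below 0 late, where reads are missing, so that the size of these ranges depends on the pseudocount.

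The fitted curves put the top at 5-6 h for m4, at 6-7 h for Brd, Tom, Ocho and malpha, and at 11-12 h for m6. From the first window to the top the fitted rise was 5.83 ± 0.60 for Brd, 5.76 ± 0.45 for Ocho, 5.29 ± 0.67 for Tom, 5.28 ± 0.73 for malpha, 4.94 ± 0.95 for m4 and 6.63 ± 0.55 for m6, on the log2 scale. Between the top and 22-23 h, the last window, the fit of m6 decreased by 4.18 ± 0.55 and that of Tom decreased by 4.87 ± 0.64. That of Brd decreased by 9.19 ± 0.57 and that of m4 decreased by 9.04 ± 0.85, which do not differ beyond their SE. By their highest RPM, 5 of the 6 were time-dependent genes highest within 0-8 h, a class that holds 49.4% of genes tested, and m6 was 1 of the 21.5% that were highest within 8-16 h. At the level of TSCs, 6 of 6 were called, as were 90.1% of the 15235 tested.

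The members were also brief. At least 87.1% (m6) and up to 96.8% (Brd) of the summed RPM of each fell within its best 8 consecutive windows, with 90.9% for Tom, 91.1% for malpha, 91.4% for Ocho and 95.4% for m4. All 6 therefore met the definition of a developmentally regulated promoter used in the study, at least 60% of expression in 8 windows, which 53.0% of the 12227 TSCs with at least 10 RPM met. The windows at or above 50% of the highest ran over 4-8 h for Brd, 4-9 h for Ocho, 3-10 h for Tom and 9-13 h for m6. In malpha and m4 they ran over 5-7 h, and windows outside that stretch were also above the mark (8-9 h and 9-10 h in malpha, 3-4 h in m4).

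**Figure D2:**
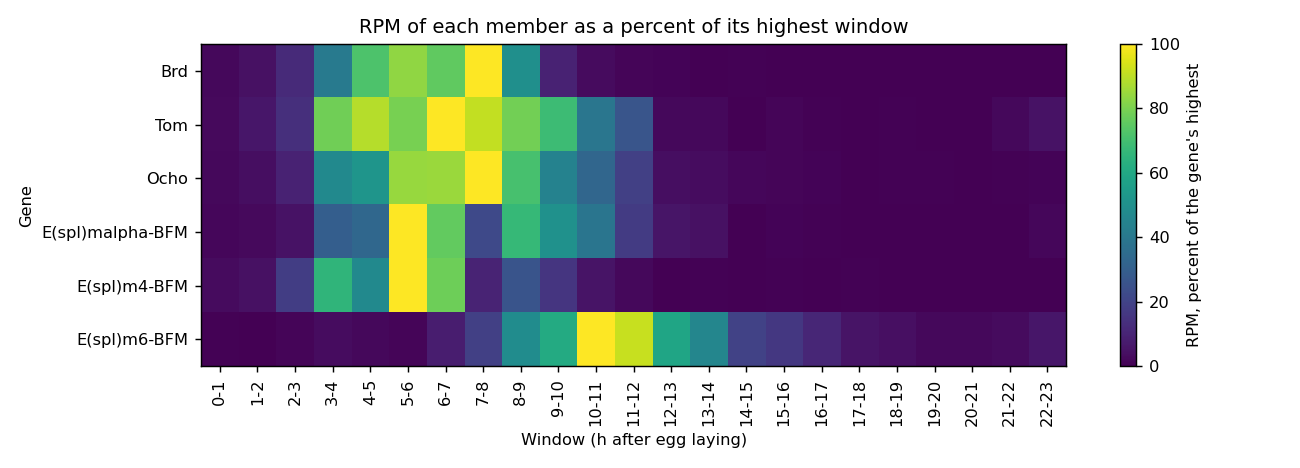
RPM of each gene as a percent of its own highest window (colour, 0 to 100) for the 6 genes (rows) in the 23 windows (columns, hours after egg laying). The first 5 rows reach 100 between 5-6 h and 7-8 h, with a dark cell at 7-8 h in malpha and m4 (21.9% and 9.91%), and m6 reaches 100 at 10-11 h.

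Within the Bearded locus the balance between the reads of Brd and Ocho changed with time. Brd gave 2.28 to 3.64 reads for each Ocho read in every window through 7-8 h. The ratio was 1.85 at 8-9 h (1.74 to 1.98), 0.569 at 9-10 h (0.521 to 0.62), then 0.24 at 10-11 h (0.205 to 0.279) and later 0.178 at 11-12 h (0.134 to 0.232). Brd therefore gave more reads than Ocho through 8-9 h and fewer from 9-10 h through 11-12 h. Later ratios rest on few reads. Brd was still the less frequent at 13-14 h, with 22 reads against 67 (ratio 0.328, 0.193 to 0.538). The same held at 16-17 h, with 32 reads against 54 (0.593, 0.37 to 0.934). At 17-18 h Brd was the more frequent, with 43 reads against 19 (ratio 2.26, 1.29 to 4.11). In the other later windows the interval included equal reads. Between Ocho and Tom no such turn was seen, since their ratio lay between 4.16 and 7.83 in all windows through 11-12 h. In the E(spl) complex m4 gave 5.74 reads for each malpha read at 0-1 h (3.67 to 9.37) and 6.03 at 1-2 h (4.64 to 7.95). The ratio was highest at 2-3 h, 13.6 (7.17 to 29.0), on 10 malpha reads. It was 3.65 at 6-7 h (3.38 to 3.94), then 1.09 at 9-10 h (0.937 to 1.26) and later 0.493 at 10-11 h (0.388 to 0.624). From 6-7 h through 10-11 h the ratio of m6 to malpha ran the other way. It was 0.168 at 6-7 h (0.14 to 0.201), 1.13 at 8-9 h (0.959 to 1.32), then 4.00 at 10-11 h (3.45 to 4.67) and later 15.4 at 13-14 h (9.89 to 25.2).

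**Figure D3:**
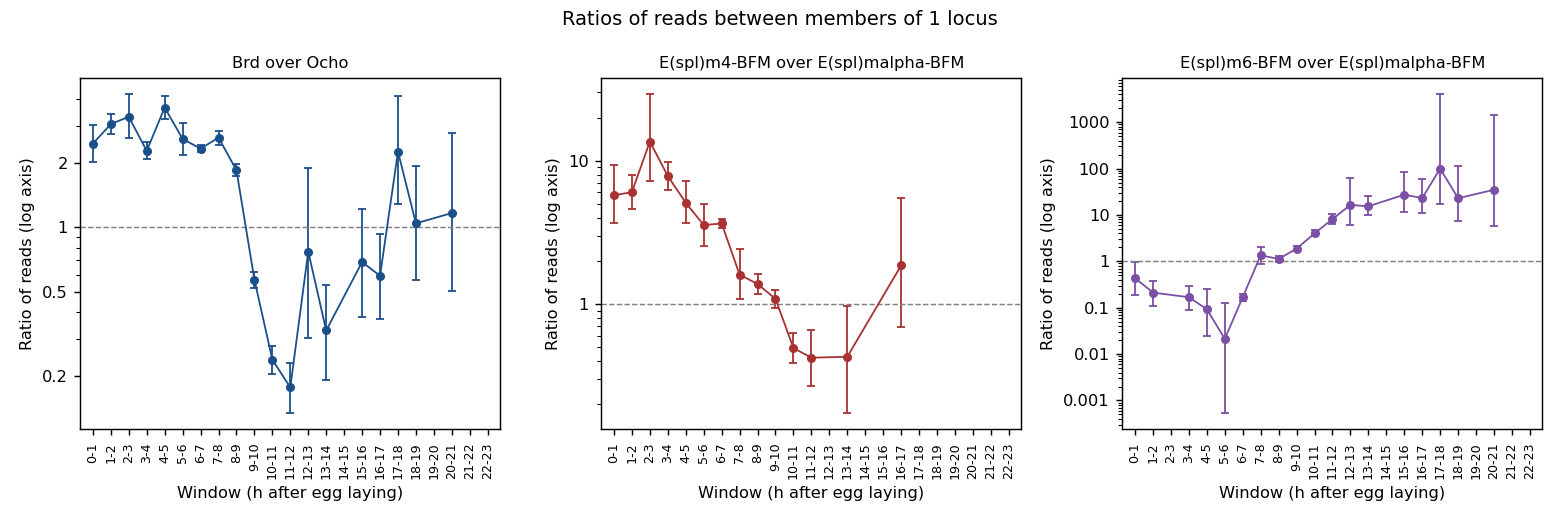
Ratio of reads (log axis) of Brd to Ocho, m4 to malpha and m6 to malpha in each window, in hours after egg laying. Bars are exact 95% intervals for counting error, the dashed line marks equal reads, and windows in which the pair had fewer than 20 reads, or either gene none, are left out. The first 2 ratios pass below 1 at 9-10 h and 10-11 h and are above it again at 17-18 h (2.26) and 16-17 h (1.86, 0.689 to 5.50), while m6 over malpha is 1.35 at 7-8 h (0.894 to 2.05), the low window of malpha, and 1.87 at 9-10 h (1.64 to 2.14).

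At 7-8 h malpha and m4 shared a single low window. The m4 promoter had 57.8 RPM there (69 reads, interval 45.0 to 73.2 RPM), between 454 RPM at 6-7 h and 152 RPM at 8-9 h. The malpha promoter had 36.0 RPM (43 reads, 26.1 to 48.5 RPM), between 124 and 109.98 RPM. Against the geometric mean of the neighbouring windows this is a ratio of 0.22 for m4 and 0.308 for malpha. Of 2629 genes with at least 50 RPM in both neighbours, 0.685% had a ratio as low as m4 and 1.52% one as low as malpha. The window and both genes were picked after their values were seen, so these percentages are a description and no test. The Bearded locus did not dip, and Brd (ratio 1.63), Ocho (1.29) and Tom (1.02) were at or above the geometric mean of their neighbours in the same library. Among the bHLH genes of the E(spl) complex, E(spl)m5-HLH (0.605) and E(spl)mdelta-HLH (0.633) were low to a lesser degree. The ratio was 0.861 for E(spl)m7-HLH and 0.751 for the family gene E(spl)m2-BFM, and E(spl)mgamma-HLH (1.28) was not low. The window was also low for sna (0.35), emc (0.36) and N (0.461), 3 genes of other lists fixed for comparison. This window is 1 library of 1193702 reads and has no replicate here.

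The profiles were compared with each other as a description, since all share the same 23 libraries. The Pearson correlation of log2(RPM + 1) over the windows was 0.87 to 0.96 for the 10 pairs without m6, across both loci. Among the highest were those of Ocho with malpha and of Ocho with Tom (0.96 each), and their order depends on the scale, since without logs they were 0.85 and 0.96. The 5 pairs with m6 ranged from -0.10 (with m4) to 0.32 (with malpha). The median of the 15 pairs was 0.88. Leaving out any single window moved the pair of m4 and m6 between -0.17 and -0.02 and that of Ocho and malpha between 0.96 and 0.98. The sign of the m4 and m6 pair is not resolved, since its SE from leaving out single windows (jackknife) was 0.18. With all libraries thinned to the depth of the shallowest, the 5 pairs with m6 ranged from 0.12 to 0.40.

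By the same measure, the 3 genes most like each member were found among 8747 others with at least 10 RPM in some window. For Ocho they were E(spl)mgamma-HLH (0.99), Bacc and akirin (0.97 each), and for Tom they were Ocho, malpha (0.96 each) and E(spl)mgamma-HLH (0.95). For malpha they were Ocho, E(spl)mgamma-HLH and FBgn0265434 (0.96 each). The gene nearest to m4 was BobA, another Bearded family gene (0.97), followed by CG15480 (0.97) and E(spl)m5-HLH (0.96). Brd was most like CG4440 (0.98), the proneural gene ac (0.97) and CG13029 (0.97). The nearest of m6 were Hr3, a nuclear receptor of the ecdysone response (0.97), Myo10A, an unconventional myosin (0.95), and FBgn0003888 (0.95). At 0.9 or above m6 had 31 genes, against 40 to 184 for the other members.

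Other genes of the pathway were taken from fixed lists. The Bearded family genes not among the 6 were BobA, BobB, BobC and E(spl)m2-BFM, of which BobA and E(spl)m2-BFM were matched in the gene table and called (2 of 2). BobA lies in the Bearded locus, 23.2 kb before Tom on the other strand, and was highest at 3-4 h with 193 RPM (352 reads). The Bob genes are near-identical copies, so that its reads may be shared among copies. E(spl)m2-BFM was highest at 8-9 h with 86.7 RPM (231 reads), and lies between malpha and m4. The bHLH repressors of the complex, which carry out the Notch response by silencing proneural genes, were called in 7 of 7, with a median fitted range of 7.27, and 6 were highest within 0-8 h and 1 within 8-16 h, against 92.6% of all genes called and 49.4% and 21.5% in these time classes. The strongest were E(spl)mdelta-HLH at 2089 RPM and E(spl)m5-HLH at 1537 RPM, both at 5-6 h as for malpha and m4.

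Along the complex, both promoters next to m6 were highest earlier than it. The m6 promoter, highest at 10-11 h, stands between E(spl)m5-HLH (3.16 kb away, highest at 5-6 h) and E(spl)m7-HLH (4.04 kb away, highest at 6-7 h, 734 RPM). Its profile correlated with these neighbours at -0.01 and 0.43, and at 0.76 with E(spl)mbeta-HLH, the highest value among the 7 bHLH genes, which never exceeded 16.5 RPM. The only gene of the complex highest later than m6 was Kaz-m1, listed as E(spl)m1, at 22-23 h (405 RPM, 154 reads).

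**Figure D4:**
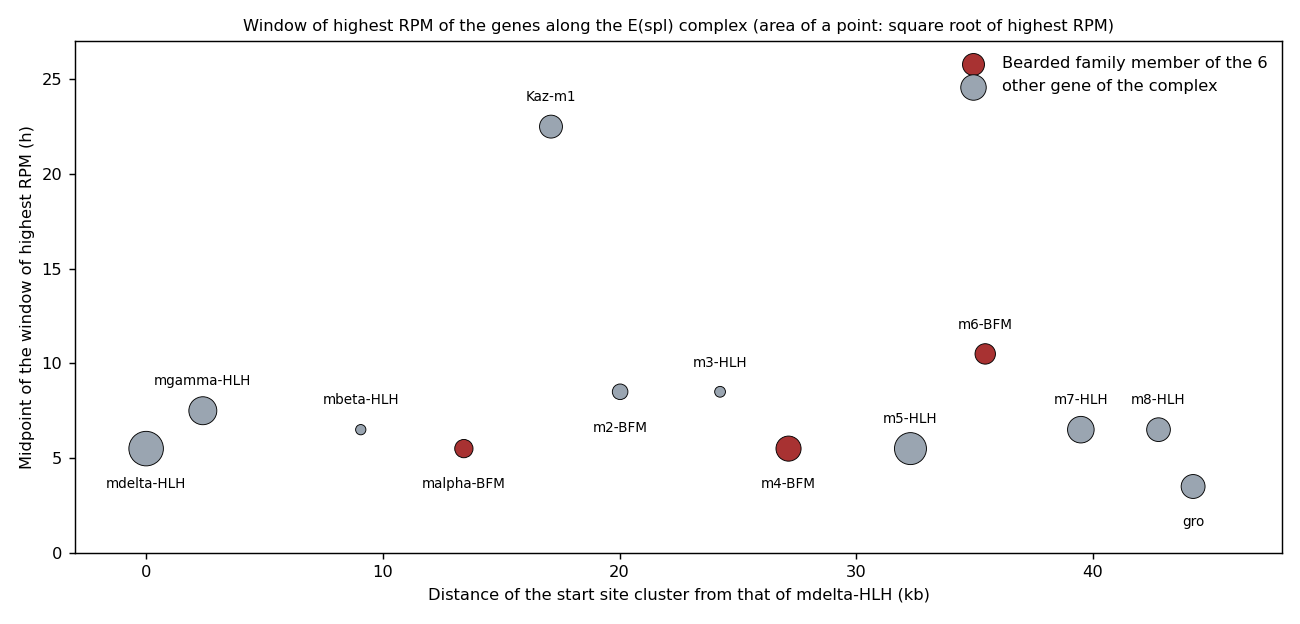
Midpoint of the window of highest RPM (hours after egg laying) of 13 genes of the E(spl) complex against the distance of their start site cluster from that of mdelta-HLH in kb. Point area is proportional to the square root of the highest RPM, dark red points are malpha, m4 and m6, and grey points are the other genes. Both malpha and m4 sit at 5.5 h and m6 at 10.5 h, between m5-HLH and m7-HLH.

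The genes of the Notch pathway mostly spanned smaller ranges. Of 17 listed genes for the receptor, its ligands, processing enzymes, sugar transferases and nuclear partners, 16 were in the gene table and 15 were called, 10 of them highest within 0-8 h and 5 within 8-16 h, which is near the 92.6% of all genes called, with 49.4% and 21.5% in the time classes. The exception was mib1, the other ligase for Notch ligands, with an adjusted p of 0.687 (limma) and at most 8.89 RPM. The median fitted range of the 16 tested was 2.83, close to the 2.98 of all genes tested and below the 7.39 of the 6 members. For m6 the most alike of them were the ligand gene Ser (0.91, highest at 10-11 h) and fng (0.91, highest at 13-14 h), a glycosyltransferase that tunes the response to ligand. Among 13 proneural and neural precursor genes, 12 were in the table and 10 were tested and called, 9 highest within 0-8 h and 1, emc, within 8-16 h, with a median fitted range of 5.44.

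Since Bearded family proteins are known to act on Neuralized, the summed RPM of the 6 genes was set beside that of neur. This sum, called the family sum, leaves out BobA and E(spl)m2-BFM. Binding to Neuralized was not examined here for the single proteins. The family sum was 81.1, 163, 449, 1744, 2322, 3214, 2927, 3079 and 2047 RPM over the first 9 windows, 950.1 RPM at 9-10 h and 10.6 RPM at 20-21 h. At its highest, 5-6 h, it took 0.321% of all reads of the library, and its interval there (3010.4 to 3429 RPM) overlapped that of 7-8 h (2980.1 to 3180 RPM). The neur gene was highest at 3-4 h (2229 RPM), earlier than the family sum, and was already present at 278 RPM at 0-1 h. The family gave 0.291 reads for each neur read at 0-1 h (0.267 to 0.318), 0.783 at 3-4 h (0.747 to 0.82), then 2.03 at 6-7 h (1.98 to 2.08) and later 4.09 at 7-8 h (3.80 to 4.41). The ratio was 1.12 at 11-12 h (1.03 to 1.22) and 0.718 at 12-13 h (0.545 to 0.942). Family reads exceeded neur reads in the 8 windows between 4 h and 12 h, and neur reads were the more frequent in all others, with an interval that reached above 1 at 22-23 h alone (1.08).

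**Figure D5:**
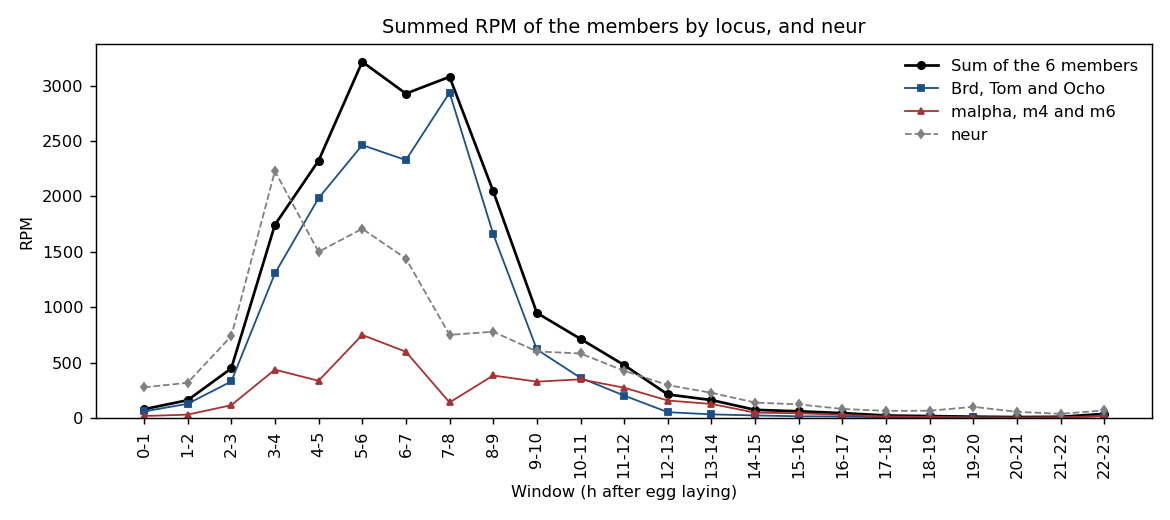
RPM summed over the 6 members (black circles), over Brd, Tom and Ocho (blue squares) and over malpha, m4 and m6 (red triangles), with neur (grey diamonds), in the 23 windows in hours after egg laying. The black line lies above neur between 4-5 h and 11-12 h and tops at 3214 RPM at 5-6 h, and at 7-8 h nearly all of it is the blue line (2936 of 3079 RPM).

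Brd alone held 48.6% to 66.8% of the family reads in each window through 7-8 h. The share of m6 was at most 1.58% in those windows, but 48.9% at 11-12 h (Wilson 95% interval 46.1 to 51.7) and 71.9% at 13-14 h (67.6 to 75.9). The 3 Bearded locus genes together gave 2463 RPM at 5-6 h, against 751 RPM for the 3 E(spl) genes. From 11-12 h through 18-19 h the E(spl) genes gave more, with 275 RPM against 204 RPM at 11-12 h and 129 RPM against 35.0 RPM at 13-14 h, most of it m6.

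All 6 genes had reads in the first window, before the main onset of embryonic transcription. At 0-1 h Brd had 343 reads, Ocho 139, m4 132, Tom and malpha 23 each and m6 10. Set against the reads in the other 22 windows, this is 158 per 10000 for Brd, 231 for m4, 121 for Ocho, 114 for Tom, 110 for malpha and 27.8 for m6. The same value was taken for 288 late genes, with at least 95% of their reads from 14-15 h on and at least 100 RPM in their highest window. Their median was 4.13 per 10000 and their 95th percentile 11.6. Such late genes do not gauge reads from the windows in which the members were high. As a percent of the highest RPM, the 0-1 h level of the members was 0.473 (m6) to 2.74 (m4). For the 7 bHLH repressors of the E(spl) complex it was alike, 0.608 (E(spl)m3-HLH) to 2.94 (E(spl)mbeta-HLH). The samples shared a pool, and the part of reads from other windows in these values was not tested.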

How the data were processed

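RPM tables of genes and of TSCs were used. The authors mapped the reads with STAR (version not given in the sources used here) to FlyBase release 5.49 (dm3), called TSCs on the pooled series with their own peak caller, removed those over ribosomal DNA, and scaled reads to RPM over the reads in TSCs. The deposited score of each TSC and the warped Z-score table were not used. The RPM values were whole multiples of 1 read (100% of gene values within 0.01 reads), so reads were recovered. TSCs without a gene held 0.51% of the reads.

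For genes or TSCs with a mean of at least 1 RPM, log2(RPM + 1) was fitted over the windows with a natural cubic spline (6 degrees of freedom), and limma 3.58.1 in R 4.3.3 gave the moderated F test (trend and robust options) with Benjamini-Hochberg adjustment. A fold change on this scale understates the change of low genes. On the recovered reads, edgeR 4.0.16 called 8286 genes and DESeq2 1.42.0 called 8334. Fold bounds used 3 reads as the limit for a count of 0. How PCR duplicates were treated is not given in the sources used here.

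The members and lists were chosen with earlier results of these data known. Named genes were the 6 members, the 3 genes most correlated with each, and listed genes of the same complexes or pathway. BobB, BobC, Psn and da were not matched by symbol. No sequences or promoter motifs were analysed here, since the genome used here came as annotation of another build.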

Additional observations from a re-analysis of the deposited data

How the results depend on the processing

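Each of the 6 members was called time-dependent in all 33 alternatives run for it (34 for Brd, the only member that passed filterByExpr), with the fitted log2 range between 4.47 (malpha, pseudocount 5) and 12.8 (m4, pseudocount 0.1) and a largest adjusted p of 5.29e-07 (limma). Leaving out single windows gave ranges of 8.94 to 10.7 for Brd, 6.67 to 7.17 for Tom, 7.45 to 7.86 for Ocho, 6.27 to 7.10 for malpha, 8.64 to 9.30 for m4 and 6.10 to 6.84 for m6, and 8597 to 8895 genes or 13279 to 13884 TSCs. With filterByExpr 4653 of 5101 genes and 4997 of 5510 TSCs were called, since fewer were tested. Without the shallow libraries of 5-6 h and 22-23 h, malpha and m4 were highest at 6-7 h, so their highest window rests on the 5-6 h library. On RPM without logs the median correlation of the 15 pairs was 0.764. With a minimum of 25 RPM 3956 of 8271 TSCs were developmentally regulated, all 6 members among them. TMM scaling shifts values by -0.40 to 0.90 on the log2 scale, upwards late, and left the highest window of each member as it was. No paired analysis was possible because each window is 1 library. Depth limits the late windows, where 3 reads are 7.88 RPM at 22-23 h, and the 5-6 h library, where they are 10.5 RPM.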

Other observations

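Both loci held weak TSCs that were assigned to no gene. Between Tom and Ocho there was 1 (3L:14963495-14963508, plus strand), with 40 reads in all and at most 3.14 RPM, at 6-7 h. Between malpha and m6 there were 4, with 12 to 60 reads in all, the strongest at 3R:21853952-21853955 on the plus strand with 5.86 RPM at 7-8 h (7 reads).

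A single low window was also seen in another gene of the complex, chosen after its values were seen. E(spl)m8-HLH had 4.50 RPM (12 reads) at 8-9 h, between 225 RPM at 7-8 h and 248 RPM at 9-10 h, whereas malpha and m4 were low at 7-8 h and not at 8-9 h. Its ratio to the neighbouring windows, 0.0191, was the lowest of the 2600 genes with at least 50 RPM in both.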
